A study of Mus musculus with 2 samples.

Results

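Fibro-adipogenic progenitors (FAPs) are the PDGFRα-positive connective tissue cells of skeletal muscle. A set of FAPs from mouse diaphragm was described here that was chosen for transcripts of Has1, a hyaluronan synthase, and Tnfaip6, which encodes the hyaluronan-binding protein TSG-6. Cells were counted as members when at least 2 unique molecular identifiers (UMIs, each standing for 1 captured transcript) of Has1 and at least 1 of Tnfaip6 were seen. They also had to pass a FAP gate, which asked for at least 1000 UMIs in all, at most 5% mitochondrial UMIs, at least 1 UMI of Pdgfra or Cd34 and at least 50 of Dcn. Cells with at least 2 of Stmn4, Fam167a, Cmah and Duox1 seen (the Stmn4 group) or at least 3 UMIs of Gdf10 (the Gdf10 group) were left out, since these genes mark other FAP states of the same muscles. By this rule 166 cells were members, out of 1607 diaphragm cells in the FAP gate and 7658 barcodes in the series.

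The series held 2 single-cell RNA libraries, 1 of quadriceps and 1 of diaphragm, from muscle of C57BL/6J mice that carried no treatment or transgene in the labels. In all 10 mice were used, the cells of several animals were combined for each muscle, and the labels gave no age. Muscle was digested with collagenase B and dispase II for 1 hour at 37 °C, passed over a density gradient and sorted for viable cells on light scatter alone. With 1 library per muscle no test across samples was possible, and tissue and library cannot be told apart. The diaphragm library held 2499 barcodes and 28545242 UMIs, and the quadriceps library 5159 barcodes and 50854519 UMIs. Only 5 barcode sequences occurred in both libraries, and 0 of them belonged to a member.

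Hyaluronan is a long unbranched sugar chain of the extracellular matrix that synthases at the cell surface build from UDP-glucuronate and UDP-N-acetylglucosamine. TSG-6 transfers heavy chains of serum inter-alpha-inhibitor onto hyaluronan, and pentraxin 3, the product of Ptx3, takes part in cross-linking the resulting matrix. In fibroblasts these genes, with Ptgs2 and Il6, are known to be inducible by inflammatory signals.

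The promoters of 5 genes that the results turn on are printed here. Has1 and Tnfaip6 were high in members because the rule chose them, and Ptx3, Ptgs2 and Il6, outside the rule, were high in members as a group. Has1 lies on chromosome 17 (17843323 to 17855205, minus strand), Tnfaip6 on chromosome 2 (52038009 to 52056686, plus strand) and Ptx3 on chromosome 3 (66219910 to 66225805, plus strand), all on GRCm38. The sequences, from RefSeq on GRCm38.p6, are bases before the start of transcription, ended before the RefSeq start or the first GENCODE M21 transcript, whichever came first. They read 5′ to 3′ on the strand of the gene. Capitals mark matches, on either strand, to the letters of AP-1 (TGANTCA), a cyclic AMP response element (TGACGTCA), STAT (TTCNNNGAA), C/EBP (TTGCNNAA) and a TATA box (TATAAA), and to a site of NF-kB.
Has1, chr17:17855206-17855438, minus strand: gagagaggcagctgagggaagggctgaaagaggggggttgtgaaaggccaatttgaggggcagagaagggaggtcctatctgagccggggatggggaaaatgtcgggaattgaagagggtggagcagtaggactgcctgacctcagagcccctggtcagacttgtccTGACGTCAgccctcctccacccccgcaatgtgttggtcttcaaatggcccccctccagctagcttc
Tnfaip6, chr2:52037863-52038008, plus strand: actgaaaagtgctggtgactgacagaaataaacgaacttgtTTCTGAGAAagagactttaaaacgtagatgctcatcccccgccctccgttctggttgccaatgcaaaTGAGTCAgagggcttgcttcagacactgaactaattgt
Ptx3, chr3:66219637-66219886, plus strand: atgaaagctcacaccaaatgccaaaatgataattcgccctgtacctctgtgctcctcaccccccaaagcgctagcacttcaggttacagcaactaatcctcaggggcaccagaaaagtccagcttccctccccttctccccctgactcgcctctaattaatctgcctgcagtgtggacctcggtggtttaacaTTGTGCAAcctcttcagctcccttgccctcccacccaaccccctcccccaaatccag
Ptgs2, chr1:150099781-150100030, plus strand: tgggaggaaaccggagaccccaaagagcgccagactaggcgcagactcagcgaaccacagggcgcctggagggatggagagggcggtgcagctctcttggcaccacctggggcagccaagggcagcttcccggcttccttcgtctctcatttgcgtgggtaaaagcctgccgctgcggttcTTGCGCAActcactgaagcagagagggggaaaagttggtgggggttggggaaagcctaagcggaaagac
Il6, chr5:30012864-30013113, plus strand: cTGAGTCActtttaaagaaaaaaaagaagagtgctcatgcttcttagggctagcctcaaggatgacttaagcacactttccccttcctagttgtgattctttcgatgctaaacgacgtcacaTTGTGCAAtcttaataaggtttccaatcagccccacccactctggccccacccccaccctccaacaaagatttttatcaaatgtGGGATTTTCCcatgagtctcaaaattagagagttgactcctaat
The response element TGACGTCA in the Has1 window began 66 bases before the end of the window and occurred in 1.62% of the 27025 mouse promoters, taken as the 250 bases before the start, and in 3.48% of the 2385 promoters of genes compared here. The AP-1 letters were in the windows of Tnfaip6, 38 bases before its end, and Il6, and in 6.87% of all promoters and 4.19% of those of compared genes. The C/EBP letters were in the windows of Ptx3, Ptgs2 and Il6 and in 9.55% and 8.26%. The NF-kB site was in the Il6 window and in 0.337% and 0.294%, and the STAT letters in the Tnfaip6 window and in 7.18% and 5.70%. The TATA letters, in 13.0% and 7.30%, were in none of the 5 windows. No motif overlapped another in these windows, and a match is a description of letters, not a site of binding. No such count was made for the whole set of higher genes described next, of which 47 of 65 had a promoter by symbol. It would be no test, since the cells were chosen on these same UMI counts.

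Members made up 10.3% of the diaphragm FAP gate (95% exact binomial interval 8.88% to 11.9%, counting error only) and 0.537% of the quadriceps FAP gate, where 10 of 1861 cells passed the same rule. In diaphragm 314 FAP-gate cells (19.5%) had at least 2 Has1 UMIs, and 283 of these also had Tnfaip6. Of the 283 cells, 77 fell in the Stmn4 group, 41 in the Gdf10 group and 1 in both. In members, Has1 ranged from 2 to 71 UMIs per cell with a median of 8, and 72 members had at least 10. Tnfaip6 had a median of 5 UMIs and a highest of 126. These values chose the cells and are given as a description.

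**Figure D1:**
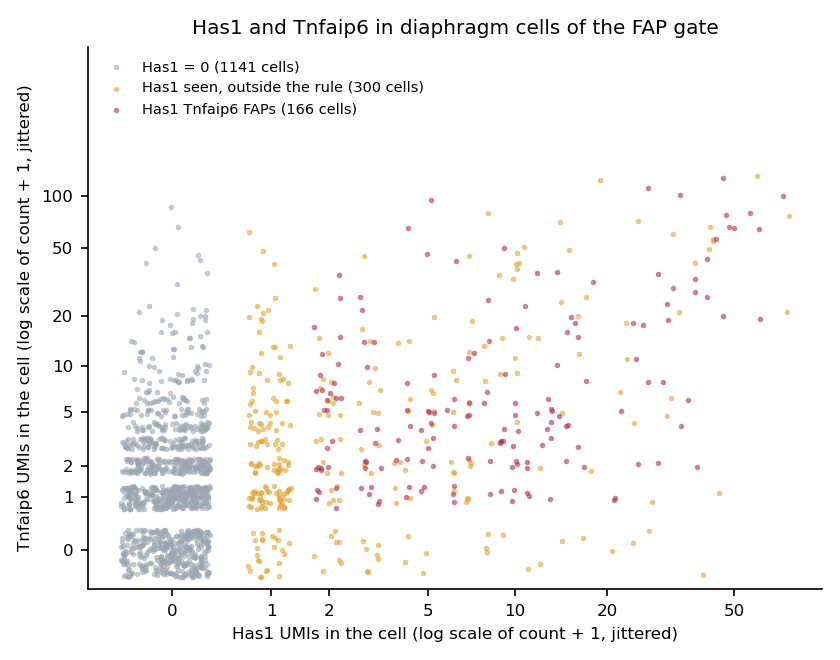
Has1 UMIs (x axis) and Tnfaip6 UMIs (y axis) in each of the 1607 diaphragm cells of the FAP gate, on log scales of the count plus 1 with jitter. Red points are the 166 Has1 Tnfaip6 FAPs, yellow points the 300 cells with Has1 outside the rule and grey points the 1141 cells without Has1. Red points lie among the yellow ones over the whole range, with no gap between them.

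The count of Has1 was graded, with 28 members at the limit of 2 UMIs. Just inside the limit, these 28 cells had 531 CPM of Tnfaip6, 326 CPM of Ugdh and 184 CPM of Ptgs2. CPM are counts of a gene's UMIs per 1000000 UMIs, from sums over the cells of a group. Just outside it, the 152 cells with 1 Has1 UMI had 316 CPM of Tnfaip6, 528 CPM of Ugdh and 104 CPM of Ptgs2. Of the 152 cells, 34 were in the Stmn4 group and 10 in the Gdf10 group. The 109 cells in neither had 293 CPM of Tnfaip6, 385 CPM of Ugdh (354 to 418, against 271 to 389 in the 28 members) and 82.1 CPM of Ptgs2. The 28 members needed a Tnfaip6 UMI to be counted and the cells with 1 Has1 UMI did not. Their difference in Tnfaip6 is therefore partly set by the rule. A further 21 cells would have passed without the limit on Tnfaip6, and 11 cells passed all but the mitochondrial limit.

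The members carried the transcripts of FAPs. Pdgfra stood at 508 CPM in members and 521 CPM in Has1 = 0 cells, and Cd34 at 1130 and 1221 CPM, both genes of the gate. Outside the gate, Ly6a, which encodes the progenitor antigen Sca-1, stood at 1641 and 1159 CPM. Of 11 measured genes of the FAP and fibroblast list that the gate did not use, 0 differed 2-fold. Over all genes compared only 2.10% were 2-fold higher and 0.387% lower, so 0 of 11 is near the background. Their median log2 fold was -0.07, against -0.06 over all genes compared. Depth was similar, with a median of 13683 UMIs and 3642 genes in members and 12685 UMIs and 3602 genes in Has1 = 0 cells, and median mitochondrial shares of 3.43% and 3.96%.

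Markers of other cell types were summed over each list. The summed level of 12 immune markers was 4.66 CPM in members and 8.06 CPM in Has1 = 0 cells, with 6 of the 12 at 0 in members. It was 8.47 and 23.0 CPM for 9 endothelial markers (6 at 0), 4.23 and 11.9 CPM for 7 satellite cell markers (6 at 0) and 23.7 and 35.0 CPM for 10 muscle fibre genes (2 at 0). The 9 smooth muscle and pericyte markers (2 at 0) were higher in members, at 76.2 and 52.5 CPM. The 8 Schwann cell markers summed to 733 and 774 CPM, of which Pmp22, a gene that fibroblasts also express, gave 728 and 766 CPM. The 8 tenocyte markers summed to 1508 and 1669 CPM, and Thbs4, a matrix protein of tendon, gave 1414 and 1548 CPM of it. Per cell, tenocyte markers had a median of 85.7 CPM in members, with a range from 0 to 22280 CPM, and of 367 CPM in Has1 = 0 cells. Diaphragm is covered by mesothelium, and the 17 mesothelial markers summed to 245 CPM in members and 261 CPM in Has1 = 0 cells, with 9 of the 17 at 0 in members. Most of the members' sum was Wt1, at 149 and 83.8 CPM, and Rspo1, a Wnt agonist gene, at 61.4 and 51.4 CPM, the 2 markers that reached 50 CPM. Msln, Krt8, Krt18 and Krt19 were at 0 in members. No member had at least 3 of 8 mesothelial markers, while 4 of 1141 Has1 = 0 cells and 2 of 152 cells with 1 Has1 UMI did. These are too few to set members apart. The summed level of the 8 markers was 1.69 CPM in members, 33.5 CPM in Has1 = 0 cells and 213 CPM in cells with 1 Has1 UMI. None of the 8 was seen in 162 of 166 members and 1117 of 1141 Has1 = 0 cells.

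Members were compared with the 1141 FAP-gate cells of diaphragm in which Has1 was not seen. A gene was compared when it reached 50 CPM in the higher group and was not used by the rule, which left 3102 genes, and it was called at a 2-fold difference with 1 CPM added to each level. In members 65 genes were higher (2.10% of those compared) and 12 were lower (0.387%). At these shares 0 calls in a list of a few genes is near the background. When cells with 1 Has1 UMI also counted as members, 39 and 4 genes were called. Because the cells were chosen on these counts, the folds describe the chosen cells and are no test. The 95% intervals given are exact Poisson intervals and cover counting error only, with cells of 1 library sharing their source.

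Some genes that supply hyaluronan synthesis were high in members along with Has1. Of 5 measured genes of this list outside the rule, 4 were at least 2-fold higher and 0 lower, with a median log2 fold of 1.06. Over all genes compared 2.10% were at least 2-fold higher. The list held 16 genes, most of them under 50 CPM in both groups and not counted. Among these, Gfpt1 stood at 46.2 and 45.9 CPM (0.01), Gnpnat1 at 47.4 and 43.3 CPM (0.13) and Pgm3 at 31.3 and 35.0 CPM (-0.15). Ugdh, the enzyme that makes UDP-glucuronate, stood at 865 CPM (828 to 903) in members and 222 CPM (214 to 230) in Has1 = 0 cells, a log2 fold of 1.96. In single members Ugdh had from 0 to 124 UMIs with a median of 4. For the other precursor, Gfpt2, which starts the hexosamine pathway, stood at 544 and 194.5 CPM (log2 fold 1.48). Uap1, which makes UDP-N-acetylglucosamine, stood at 495 and 246 CPM (1.01). Has2, the second hyaluronan synthase gene, stood at 57.2 and 26.9 CPM (1.06) and reached 50 CPM only in members. Ugp2, which makes UDP-glucose, stood at 268 and 247 CPM (0.12). The calls of Uap1 and Has2 were close to the limit and ended under 4 and 3 of 19 alternatives.

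Among genes for binding and breakdown of hyaluronan, 4 were measured outside the rule and 1 was called, Ptx3. Ptx3 had the largest fold of all genes compared, at 145 CPM (130 to 161) in members and 16.7 CPM (14.7 to 18.9) in Has1 = 0 cells, a log2 fold of 3.04. It was seen in only 36 of 166 members, and 53.2% of its UMIs came from 5 cells. The hyaluronan receptor gene Cd44 stood at 52.1 and 42.9 CPM (log2 fold 0.28), the hyaluronan-binding proteoglycan gene Vcan at 193 and 165 CPM (0.23) and the inter-alpha-inhibitor heavy chain gene Itih5 at 408 and 429 CPM (-0.07). These 3 genes differed by less than 2-fold.

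Ptgs2, the inducible cyclooxygenase of prostaglandin synthesis, stood at 335 CPM (312 to 359) in members and 68.9 CPM (64.8 to 73.3) in Has1 = 0 cells, a log2 fold of 2.26. It was seen in 97 members, with a median of 1 and a highest of 62 UMIs. It was the only gene called among 6 measured genes of prostaglandin synthesis and receptors, whose median log2 fold was -0.07. The phospholipase gene Pla2g4a, the prostacyclin synthase gene Ptgis and the receptor gene Ptgfr had log2 folds of 0.16, -0.15 and -0.60.

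Of 12 measured cytokines, chemokines and their receptors, 4 were higher and 1 was lower in members. Over all genes compared 2.10% were higher and 0.387% lower. Most of the 33 genes found for this list were under 50 CPM in both groups and not counted. Il6 and Ccl7 reached 50 CPM only in members. Il6 stood at 77.9 CPM in members and 16.3 CPM in Has1 = 0 cells (log2 fold 2.19), and Cxcl1, a neutrophil chemoattractant, at 819 and 249 CPM (1.71). Cxcl1 was seen in 125 members, Il6 in 43. Ccl7 and Ccl2, which attract monocytes, stood at 253 and 49.4 CPM (2.33) and at 160 and 68.1 CPM (1.22). Both rested on few cells, since 64.5% of the members' Ccl7 UMIs came from 5 cells and 47.5% of their Ccl2 UMIs from 1 cell. Cxcl14, a chemokine of the LUM+ FAP genes, was lower, at 272 and 555 CPM (-1.02). The eosinophil chemokine gene Ccl11 stood at 537 and 362 CPM (0.57) and Cxcl12 at 179 and 191 CPM (-0.10).

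Immediate early genes, which cells switch on within minutes of a stimulus, were high as a group. All 28 measured genes of the list had a log2 fold above 0, 12 were at least 2-fold higher, and the median was 0.87. Of these, Nr4a2 and Nr4a3 reached 50 CPM only in members. Listed genes under 50 CPM in both groups were not counted and went both ways. Fosl1, Egr2, Egr3 and Sik1 were higher in members, and Klf10 and Rgs2 lower. Over all genes compared 2.10% were at least 2-fold higher and the median was -0.06. Socs3, a feedback inhibitor of cytokine signalling, stood at 1326 CPM (1280 to 1373) in members and 294 CPM (286 to 303) in Has1 = 0 cells, a log2 fold of 2.17. Myc, a growth-promoting transcription factor, stood at 274 and 63.6 CPM (2.09), the RNA decay factor gene Zfp36 at 1357 and 404 CPM (1.75) and the AP-1 subunit gene Fosl2 at 204 and 63.6 CPM (1.66). The list was not uniform: Jun (0.15) and Fosb (0.12), chosen for mention after their values were seen, differed little. Per cell, the summed list had a median of 34990 CPM in members (range 4887 to 91580) and 20460 CPM in Has1 = 0 cells (range 702 to 88440), so the groups overlapped widely.

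The level of immediate early genes moved with membership, and its part in the other differences was not tested. An alternative chosen after seeing the data used only the 543 Has1 = 0 cells whose summed immediate early level lay between the 10th and 90th percentile of members. Their median level was 28724 CPM, still under the 34988 CPM of members. With these, 46 genes were higher and 18 lower, and 41 of the 65 higher genes were shared. Ugdh then had a log2 fold of 1.76, Gfpt2 of 1.38, Ptx3 of 2.08 and Ptgs2 of 1.78, while Gadd45g (0.96) and Nfkbiz (0.53) were no longer 2-fold higher.

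Of 15 measured heat shock chaperones, another sign of cell stress, 0 were called, which is near the share over all genes compared (2.10% higher, 0.387% lower). Their median log2 fold was 0.25, with 13 above 0, against a median of -0.06 over all genes compared. Hspa1a, the inducible HSP70, stood at 4030 CPM in members and 4435 CPM in Has1 = 0 cells (-0.14). Of 9 measured NF-kB response genes 3 were at least 2-fold higher, among them Tnfaip2 at 163 and 53.8 CPM (1.58) and Nfkbiz at 173 and 80.8 CPM (1.09). Nfkbia, the NF-kB inhibitor gene that NF-kB itself induces, had a log2 fold of 0.16 and was chosen for mention after its value was seen. The 7 measured genes of ribosome biogenesis and Myc-bound growth had a median log2 fold of 0.03, beside the log2 fold of 2.09 for Myc itself. None of the 7 was called, again near the share over all genes compared.

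Other genes with large folds had varied roles. Mt2 and Mt1, the metal-binding metallothioneins, stood at 1487 and 308 CPM (log2 fold 2.27) and at 5310 and 1250 CPM (2.09), and were seen in 155 and 163 of 166 members. Hk2, a hexokinase of glycolysis, stood at 290 and 59.7 CPM (2.26), and Smpd3, a neutral sphingomyelinase, at 77.5 and 17.0 CPM (2.12). Adamts4, which cuts aggrecan and versican, stood at 65.2 and 15.1 CPM (2.04) and the pseudokinase gene Trib1 at 108 and 25.5 CPM (2.04). Gm12840, a long intergenic non-coding RNA on chromosome 4 (117700188 to 117700923, plus strand), stood at 731 CPM (697 to 766) and 188 CPM (181 to 195), a log2 fold of 1.95. It was seen in 99 members, with from 0 to 86 UMIs.

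**Figure D2:**
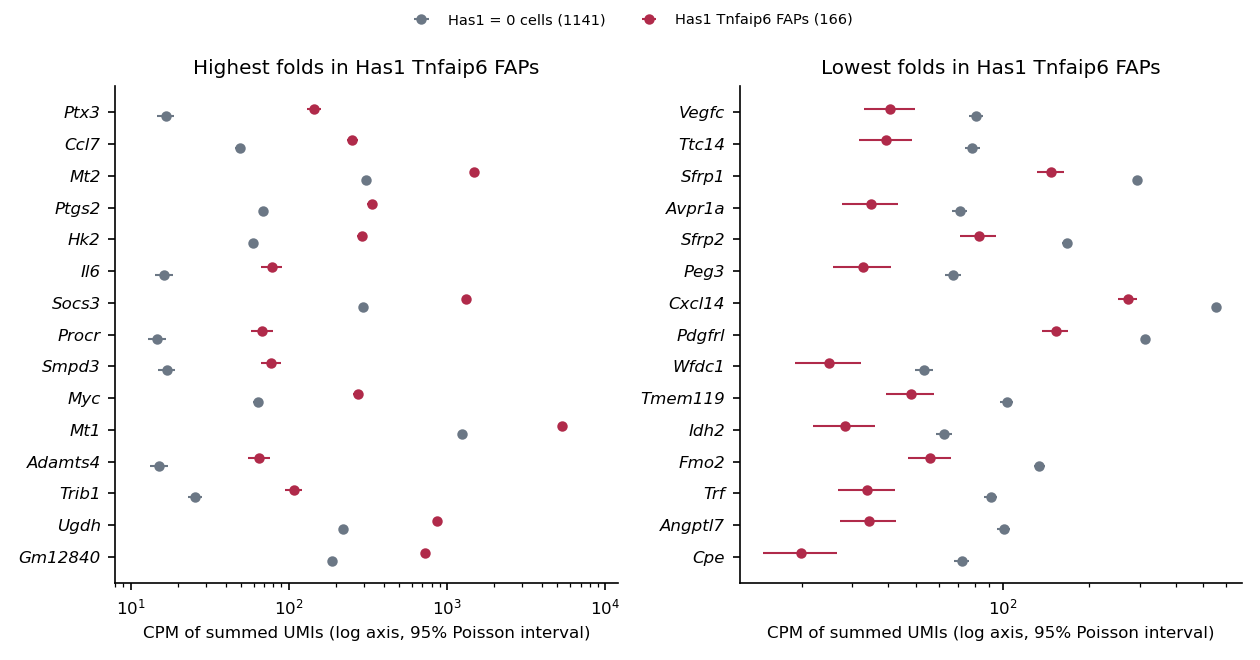
Levels of the 15 genes with the largest folds in each direction, in Has1 Tnfaip6 FAPs (red) and Has1 = 0 cells (grey) of diaphragm. The x axis is CPM of summed UMIs on a log scale with 95% Poisson intervals. The 2 groups are apart for every gene shown, from Ptx3 (145 against 16.7 CPM) to Cpe (19.9 against 72.0 CPM), because the genes were picked for their folds. Only 12 genes were called lower, so the panel of lower genes also holds genes short of the 2-fold limit.

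Shares of cells with a UMI were compared at an equal depth, with each cell cut to 5000 UMIs drawn at random. Ptgs2 was then seen in 47.0% of members (39.2% to 54.9%) and 14.9% of Has1 = 0 cells (12.9% to 17.1%), against 58.4% and 23.8% at full depth. Myc was seen in 54.2% and 20.9% (74.1% and 36.3% at full depth) and Gm12840 in 54.2% and 17.5% (59.6% and 25.9%). Ugdh was seen in 69.3% and 44.3% (87.3% and 66.7%) and Wt1 in 42.2% and 27.6% (62.7% and 47.2%). Background from free RNA was read in cells outside the gate with the immune gene Ptprc, of which 26 of 36 were deep enough. There Ptgs2 was seen in 3.85%, Myc in 15.4%, Gm12840 in 7.69%, Ugdh in 7.69% and Il6 in 7.69%, though immune cells can express Myc and Il6 themselves. Wt1 was seen in 0 of the 26, which allows a share of up to 11.5%. The 36 cells had a median of 6521 UMIs, fewer than members. Of the 5 markers outside the rule (Gm12840, Wt1, Ptgs2, Myc and Ugdh), at least 3 were seen in 53.6% of members, 27.8% of cells with 1 Has1 UMI and 12.2% of Has1 = 0 cells. All 5 were seen in 17 members and none in 6, so members varied in how many markers they showed.

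**Figure D3:**
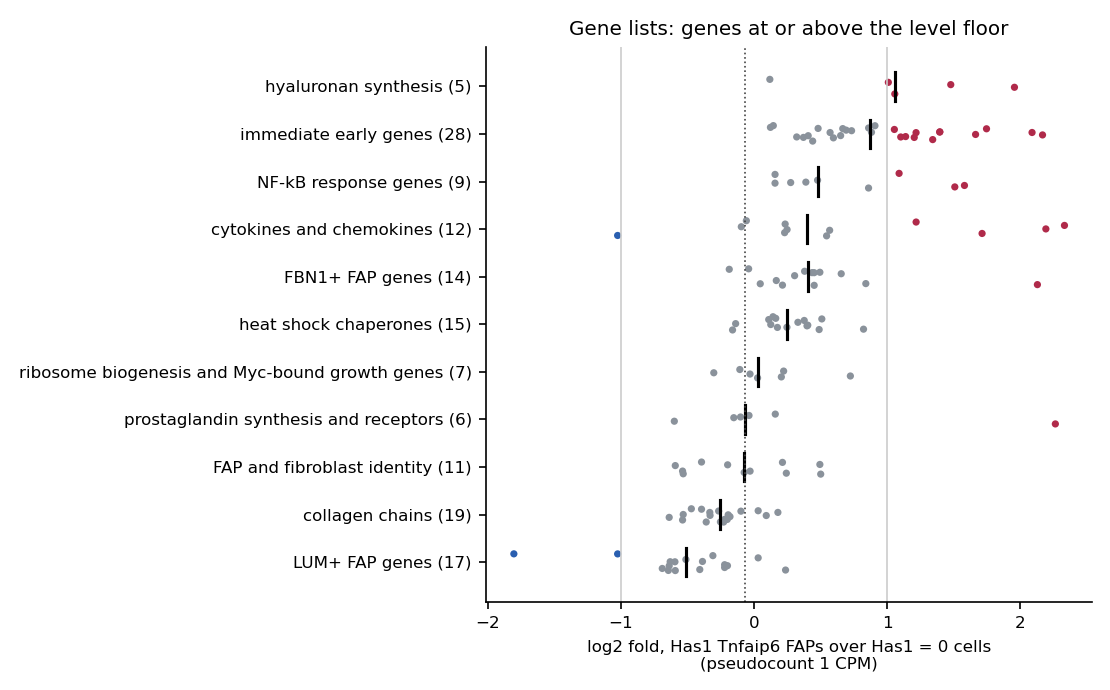
Log2 fold of each measured gene, Has1 Tnfaip6 FAPs over Has1 = 0 cells, by gene list (number of genes in brackets), with the list median as a black bar. Red and blue points are at least 2-fold higher and lower, grey lines mark these limits, and the dotted line is the median of -0.06 over all 3102 genes. All 28 measured immediate early genes lie right of 0. Of 19 collagen chains 16 lie left of it, as does the median of all genes.

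Collagen transcripts were lower by less than 2-fold. Of 19 measured collagen chains 0 were called, 3 had a log2 fold above 0, and the median was -0.25, against -0.06 over all genes compared. Col1a1 stood at 2267 CPM (2207 to 2329) in members and 3279 CPM (3250 to 3308) in Has1 = 0 cells, a log2 fold of -0.53, and Col3a1 at 5065 and 7349 CPM (-0.54). Sparc, a collagen-binding matrix protein gene, stood at 4344 and 6311 CPM (-0.54). In the other direction, the fibronectin gene Fn1 stood at 1422 and 794 CPM (0.84) and the adhesive glycoprotein gene Thbs1 at 327 and 120 CPM, a log2 fold of 1.44 and the only call in this list of 28 matrix genes.

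FAPs of muscle have been divided into LUM+ and FBN1+ subtypes by their genes. Of 17 measured LUM+ FAP genes 2 were lower and 0 higher in members, with a median log2 fold of -0.51, and 15 had a fold below 0. Over all genes compared 0.387% were called lower and the median was -0.06. Cpe, which encodes carboxypeptidase E, stood at 19.9 and 72.0 CPM (-1.80), Smoc2 at 944 and 1523 CPM (-0.69) and Lum, the proteoglycan lumican, at 1364 and 2056 CPM (-0.59). Of 14 measured FBN1+ FAP genes 1 was higher, Procr, the receptor of activated protein C, at 67.8 and 14.7 CPM (2.13). Over all genes compared 2.10% were called higher, so 1 call says little about this list. Procr reached 50 CPM only in members. The list had a median of 0.41, with Dpp4 at 82.6 and 52.1 CPM (0.66), Fbn1 at 993 and 856 CPM (0.21) and Pi16 at 3096 and 3184 CPM (-0.04). Procr was seen in 39 members, and 51.3% of its UMIs came from 5 cells. The lists were not chosen apart from these data.

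Lower genes included Angptl7, an angiopoietin-like secreted protein, at 34.3 and 101 CPM (-1.53), the transferrin gene Trf at 33.9 and 91.0 CPM (-1.40), and the monooxygenase gene Fmo2 at 55.9 and 134 CPM (-1.25). Idh2, of mitochondrial isocitrate metabolism, stood at 28.4 and 62.7 CPM (-1.12), and the secreted Wnt modulator gene Sfrp2 at 82.6 and 168 CPM (-1.01). Its relative Sfrp1 stood just short of the limit, at 147 and 294 CPM (-0.99). When cells with 1 Has1 UMI also counted as members, the log2 folds of Trf and Fmo2 were -0.30 and -0.20. Of the members' Sfrp2 UMIs, 40.5% came from 1 cell.

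The levels were next read by Has1 count, with no limit on Tnfaip6. The 6 classes (0, 1, 2 to 4, 5 to 9, 10 to 19, and 20 or more UMIs) held 1141, 152, 117, 77, 64 and 56 diaphragm FAP-gate cells. The Stmn4 group made up 7.45% of the first class and between 22.4% and 29.7% of the others, and Ugdh was high in that group without Has1 too. The classes were therefore read without the Stmn4 and Gdf10 groups, a choice made after seeing the data, which left 899, 109, 65, 44, 41 and 37 cells. Median depth was from 12572 to 14550 UMIs, and the part of depth in the order was not tested. In the comparison itself, 62 genes were higher in members than in the 880 Has1 = 0 cells of like depth, 61 of them shared with the 65.

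In these cells Ugdh stood at 183, 385, 336, 663, 642 and 1991 CPM and Tnfaip6 at 181, 293, 461, 665, 503 and 2301 CPM. Gm12840 stood at 171, 398, 446, 419, 732 and 1213 CPM and Socs3 at 314, 594, 1081, 1151, 1146 and 1930 CPM. All 4 were lowest with Has1 = 0 and highest with 20 or more UMIs, but not higher in every next class between. With the groups included, Ugdh stood at 222, 528, 530, 859, 1245 and 2086 CPM, and was higher in each next class but from 1 to 2 to 4 UMIs, where the intervals overlapped.

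Ptgs2 stood at 62.9, 82.1, 199, 305, 270 and 591 CPM in the classes without the groups. Il6 stood between 39.1 and 50.3 CPM in the 4 classes from 1 to 19 UMIs, with overlapping intervals, and at 219 CPM (181 to 263) in cells with 20 or more. Ptx3 stood at 10.0, 14.6, 88.1, 101, 39.4 and 377 CPM, and Ccl2 at 52.2, 35.1, 30.9, 130, 492 and 11.4 CPM, with no order. Smoc2 was lower in each next class, from 1668 to 583 CPM, though the intervals of the classes with 5 to 9 and 10 to 19 UMIs overlapped. Wt1 stood at 82.6 CPM in the first class and 225 CPM in the last.

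**Figure D4:**
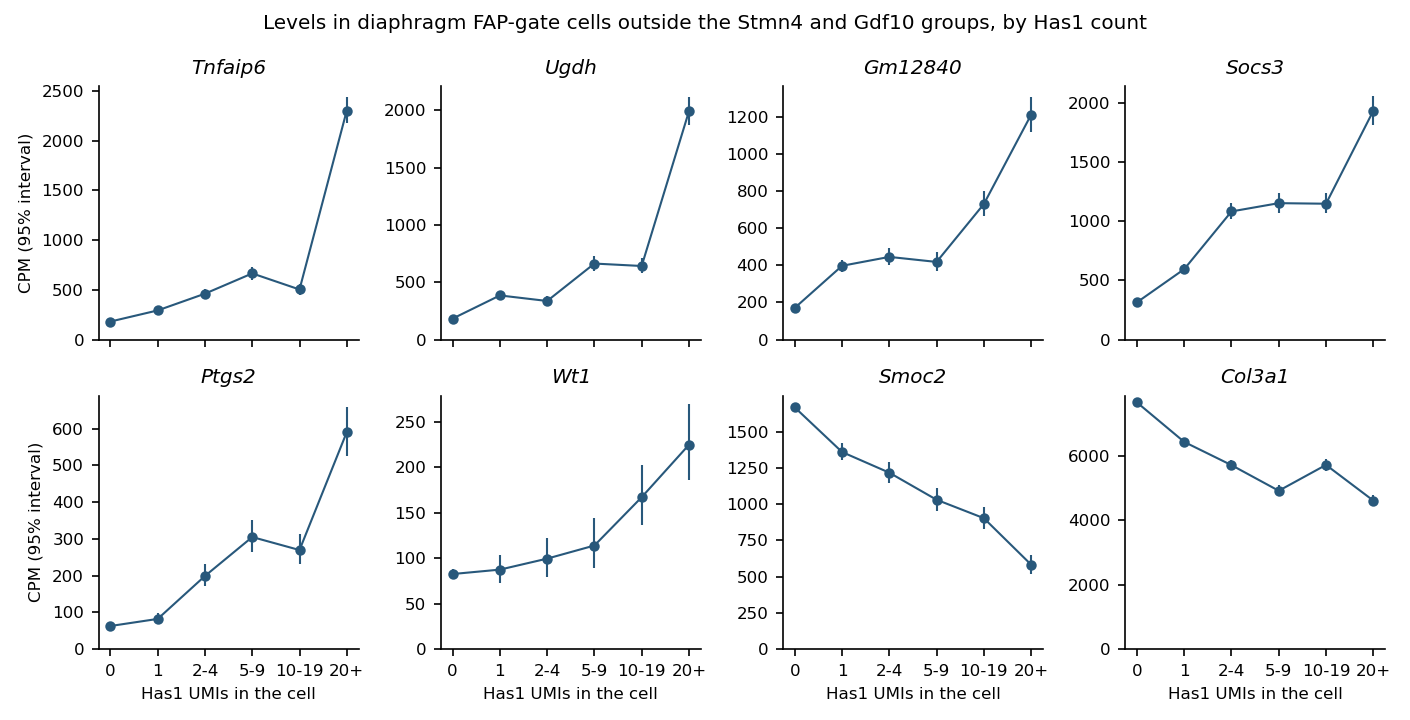
Levels of 8 genes (CPM of summed UMIs, 95% Poisson intervals) in diaphragm FAP-gate cells outside the Stmn4 and Gdf10 groups, by their Has1 UMIs, from 0 (899 cells) to 20 or more (37 cells). Tnfaip6, Ugdh, Gm12840, Socs3, Ptgs2 and Wt1 are highest in the last class, with Ugdh at 1991 CPM, and Smoc2 and Col3a1 are lowest there.

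Wt1, a transcription factor of the embryonic coelomic lining and its derivatives, had 0 UMIs in all 5159 quadriceps barcodes and 2575 UMIs in the diaphragm library. In diaphragm it stood at 149 CPM (134 to 165) in members and 83.8 CPM (79.2 to 88.6) in Has1 = 0 cells, a log2 fold of 0.82. At 5000 UMIs it was seen in 0 of 1801 quadriceps FAP-gate cells, which allows a share of up to 0.167%. That is a limit on cells with a UMI, not on cells that express the gene, since Wt1 was seen in only 42.2% of members at that depth. The 104 members in which Wt1 was seen and the 62 in which it was not had similar depth, with medians of 13790 and 13247 UMIs. Ptx3 stood at 228 CPM with Wt1 and 7.85 CPM without, Procr at 105 and 5.61 CPM, Gm12840 at 1032 and 236 CPM and Ugdh at 1185 and 336 CPM. Socs3 stood closer, at 1534 and 982 CPM, as did Ptgs2, at 361 and 293 CPM, while Smoc2 was lower with Wt1, at 687 and 1368 CPM. These cells were divided by a gene that itself has few UMIs per cell, so the folds describe this division only.

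The Stmn4 and Gdf10 groups, which the rule left out, also held cells with Has1 and Tnfaip6 past the limits. In the Stmn4 group 77 such cells were set against 85 cells with Has1 = 0, and in the Gdf10 group 41 against 159. Of the 65 genes higher in members, 63 had a log2 fold above 0 in the Stmn4 group and 40 were at least 2-fold higher. Over all 3102 genes compared, 42.3% were above 0 there and 1.87% at least 2-fold higher. In the Gdf10 group it was 61 and 47 of 65, against 43.5% and 2.26% of all. Of the 12 lower genes, 5 were at least 2-fold lower in the Stmn4 group and 3 in the Gdf10 group, against 1.13% and 1.16% of all. The groups share the library and the choice by Has1 and Tnfaip6, so these counts are no replicate of the comparison.

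Within the groups, Ugdh stood at 1808 CPM (1734 to 1883) in Stmn4 group cells with Has1 and Tnfaip6 and at 698 CPM (653 to 745) in those without Has1. In the Gdf10 group it stood at 779 and 146 CPM. Socs3 stood at 706 and 179 CPM in the Stmn4 group and 1377 and 262 CPM in the Gdf10 group. Ptx3 had little difference in the Stmn4 group, at 138 CPM (118 to 160) and 94.4 CPM (78.5 to 113), and a large one in the Gdf10 group, at 128 and 14.5 CPM. Has2 stood at 143 and 69.3 CPM in the Stmn4 group and 25.5 and 10.0 CPM in the Gdf10 group. Against Stmn4 group cells with Has1 and Tnfaip6, members had lower Ugdh (log2 fold -1.06) and Has2 (-1.31) and higher Socs3 (0.91). Against such Gdf10 group cells the log2 fold of Ugdh was 0.15, of Socs3 -0.05 and of Procr 1.57.

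**Figure D5:**
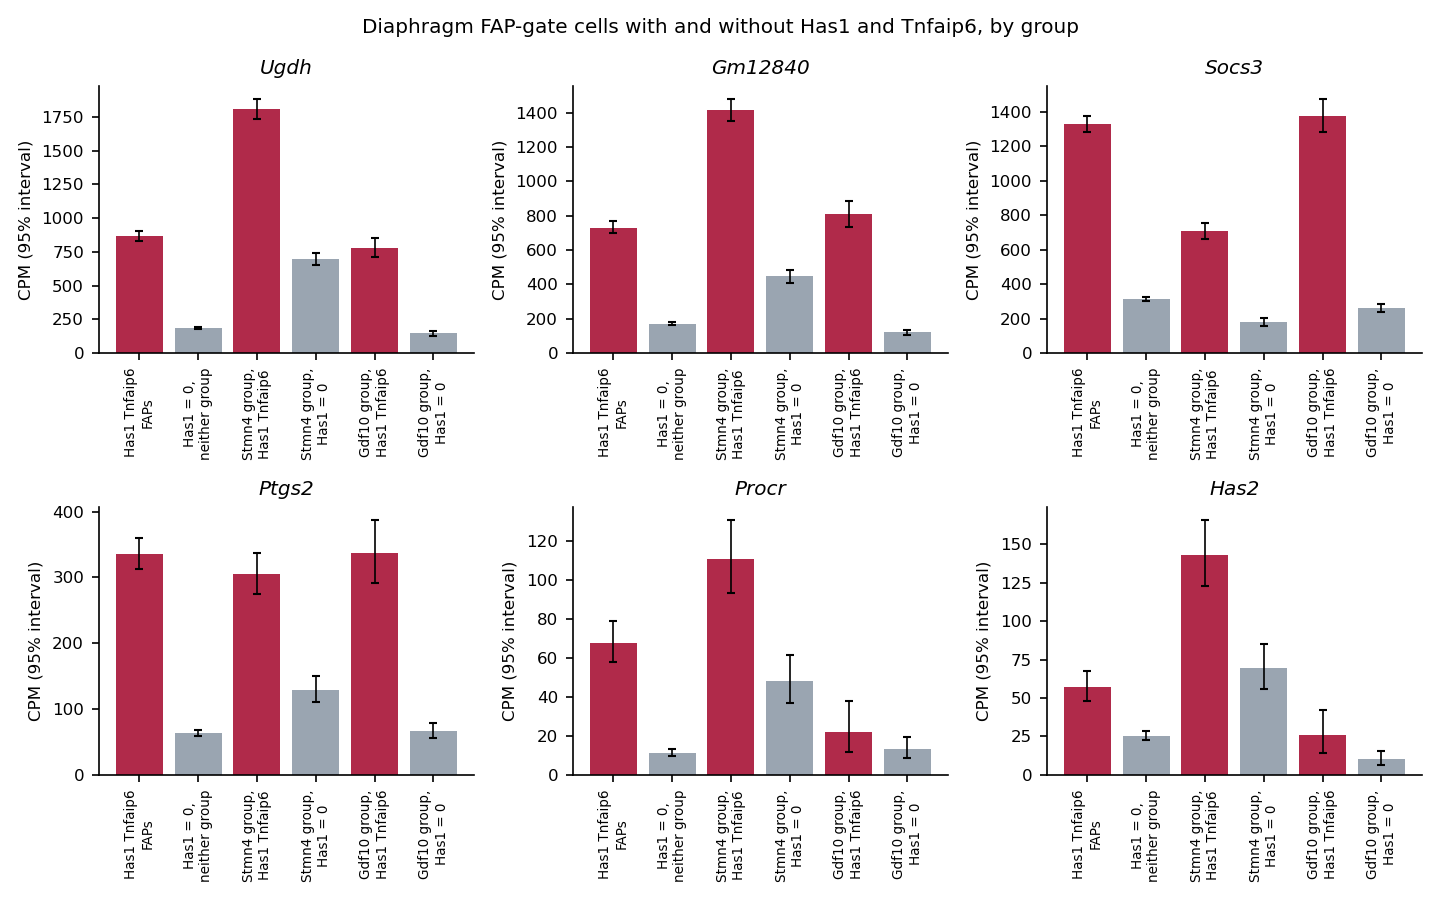
CPM of summed UMIs with 95% Poisson intervals for 6 genes in diaphragm FAP-gate cells with Has1 and Tnfaip6 past the limits (red) and with Has1 = 0 (grey), for cells in neither group, in the Stmn4 group and in the Gdf10 group. The red bar is above the grey one beside it for each gene in each group, though the intervals of Procr and Has2 overlap in the Gdf10 group, and Ugdh, Procr and Has2 are highest in the Stmn4 group.

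In quadriceps the 10 cells that passed the rule held 179883 UMIs, so only large differences could be read. Of the 65 genes higher in diaphragm members, 33 had a fold above 0 against the 1674 quadriceps cells with Has1 = 0 and 19 were at least 2-fold higher. Over the 3102 genes 48.8% were above 0 and 3.29% at least 2-fold higher, so the share above 0 was close to the background. Of the 12 lower genes 8 were at least 2-fold lower, against 7.90% of all. Ugdh had 1 to 11 UMIs in each of the 10 cells and stood at 272 CPM against 263 CPM (log2 fold 0.05, -0.38 to 0.46), and Gfpt2 at 233 and 220 CPM (0.09). Uap1 stood at 828 and 298 CPM (1.47), Mt2 at 567 and 175 CPM (1.69), and Ptgs2, with 11 UMIs, at 61.2 and 21.1 CPM (1.49). Il6, Wt1 and Gm12840 had 0 UMIs in the 10 cells, and Ptx3 had 1.

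The few quadriceps cells were also unlike each other. Of their 678 Ccl2 UMIs, 98.7% lay in 2 cells, and 1 cell held 379 of 380 Fmod UMIs, all 53 of Tnmd and all 19 of Scx, which are genes of tendon chosen for mention after their values were seen. Over the whole FAP gate, Has1 stood at 179 CPM in diaphragm and 16.3 CPM in quadriceps, Tnfaip6 at 356 and 67.2 CPM and Gm12840 at 353 and 5.38 CPM. Whether these levels differ between the muscles or between the libraries cannot be told apart.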

How the data were processed

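Each muscle gave 1 droplet library. The deposited files held raw UMI counts for each gene in each barcode. The authors produced these counts with Cell Ranger 3.0.0 and the mm10 genome, and applied no normalisation to them. The submitters' notes also name Seurat, and its values were not used here. There were 27998 genes, 13 of them mitochondrial.

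The members, the 25 gene lists (512 genes, 3 not found by symbol) and the comparisons were chosen with earlier results of these data known. UMIs were summed over the cells of a group and scaled to CPM, and folds were taken as log2 after adding 1 CPM, leaving out genes under 50 CPM in both groups. Named genes were those of the rule and the markers, the 15 largest folds in each direction, and up to 5 listed genes per list and direction. Intervals are 95% exact Poisson for CPM and exact binomial (Clopper-Pearson) for shares, and a count of 0 was given a limit of 3 counts. Cells are not replicates, so no p-value was computed. Thinning used 5000 UMIs, which left out 9 of 1141 Has1 = 0 cells and 0 members. No doublets were removed from the main results, and Scrublet was an alternative. The fold steps were tested on simulated data. Python 3.11.15, numpy 2.4.6, scipy 1.17.1 and scanpy 1.11.5 were used, with gene positions from GENCODE M21 and promoters from RefSeq (GRCm38.p6).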

Additional observations from a re-analysis of the deposited data

Results flagged for a closer look

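In 5 named genes the 10 quadriceps cells that passed the rule had a fold opposite to that of diaphragm members, by at least 2-fold each way, and these differences between the muscles were not tested. Angptl7 had a log2 fold of 1.32 in quadriceps and -1.53 in diaphragm, on 55 UMIs that lay in 2 quadriceps cells. Pdgfrl stood at 1.45 and -1.03, on 36 UMIs. Gadd45g stood at -1.68 in quadriceps and 1.40 in diaphragm (8 UMIs), Procr at -1.40 and 2.13 (15 UMIs), and Smpd3 at -2.12 and 2.12 (4 UMIs). Procr and Smpd3 were high in quadriceps FAPs without Has1, at 222 and 100.3 CPM.

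Among diaphragm barcodes over the mitochondrial limit, which no comparison used, 11 passed every other criterion. They had a median mitochondrial share of 5.36%. Gm12840 stood at 748 CPM, close to the 731 CPM of members, but other genes stood lower than in members. Has1 stood at 199 CPM against 904 CPM in members and Ugdh at 467 against 865 CPM. Ptgs2 stood at 24.9 CPM on 4 UMIs against 335 CPM, and Ptx3 had 0 UMIs.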

How the results depend on the processing

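No paired analysis was possible because each muscle had 1 library, and no replicate could be left out. The share of members in the diaphragm FAP gate was 8.69% with a mitochondrial limit of 10% and 8.59% with none, 16.0% with a Has1 limit of 1 UMI, 6.97% with 5 UMIs, 8.53% with 200 CPM and 17.6% without the exclusion of the Stmn4 and Gdf10 groups. In quadriceps it was 1.24%, 0.161% and 0.215% under these Has1 limits, 1.07% without the Tnfaip6 limit and 1.72% without the exclusion. It was higher in diaphragm under all of these. With a Has1 limit of 1 UMI, 39 genes were higher and 4 lower. Lower genes numbered 22 without the exclusion, 5 with a pseudocount of 10 CPM and 28 with a floor of 20 CPM. With no floor 166 genes were higher and 436 lower, where every added gene was under 50 CPM in both groups. Other alternatives stayed within 1.5 times of the main counts. Of 39 named genes called outside the rule, 24 stayed past 2-fold in all 19 alternatives and 0 changed direction. Alternatives with comparison cells of closer immediate early level, and without 4 cells with mesothelial markers, were chosen after seeing the data. Ccl2 ranged from 0.79 to 2.49 in log2 fold. Scrublet called 3 of 2499 diaphragm barcodes, too few to be a check on doublets, and 0 members.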

Other observations

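Other gene groups had few calls between members and Has1 = 0 cells of diaphragm. Over all genes compared 2.10% were higher and 0.387% lower, so few calls in lists of this size are near the background. Of 12 measured matrix proteases and their inhibitors 1 was called, Adamts4, and the list median was 0.15. Adamts1 stood at 365 and 233 CPM (log2 fold 0.65) and the gelatinase gene Mmp2 at 783 and 982 CPM (-0.33). Of 25 measured growth factors and modulators of BMP and Wnt signalling 0 were higher and 1 was lower, Sfrp2. The Wnt antagonist gene Dkk2 stood at 73.3 and 38.6 CPM (0.91), with 71.7% of its UMIs in members from 5 cells, and Bmp4 at 143 and 207 CPM (-0.53).

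Few transcription factors of the embryonic source of diaphragm connective tissue could be compared. Most of the 24 listed genes were under 50 CPM in both groups. Among these, Gata4 stood at 15.7 and 16.7 CPM (-0.08), Gata6 at 35.1 and 48.1 CPM (-0.44), Nr2f2 at 24.1 and 39.9 CPM (-0.70) and Tbx5 at 4.66 and 1.68 CPM (1.08). Of 7 measured genes, with Wt1 among them, 0 were called, which is near the share over all genes compared. Osr1 stood at 92.7 and 104 CPM (-0.16), Prrx1 at 306 and 309 CPM (-0.01) and Meis2 at 111 and 119 CPM (-0.10). Of 2 measured cell cycle genes, the inhibitor gene Cdkn1a stood at 461 and 353 CPM (0.39).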
